A study of Homo sapiens with 4 samples.

Results

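Interferon-induced and RNA sensing genes were examined in GIST-T1, an established line of human cells grown from a gastrointestinal stromal tumor (GIST). The members were 49 genes chosen by name: double-stranded RNA sensors and their adaptor, transcription factors of the interferon response, interferon beta and its receptors, and interferon-induced effectors. All array probes whose annotated gene name was exactly one of these names were taken, which gave 73 of the 50599 probes and 49 of the 36337 gene names. GIST-T1 cells received, by electroporation, 100 pmol of a miR-34a mirVana mimic or of mirVana miRNA mimic Negative Control #1, and total RNA was taken 48 h later. Both conditions were therefore given a synthetic RNA by the same procedure, and cells without transfected RNA were not analysed here, so the values describe the mimic relative to the control RNA. Each condition had 2 arrays, a one-color Agilent design read with Cy3, and the labels do not say whether the arrays of a condition came from separate cultures. The p-values then measure only the spread between these arrays, which may be technical.

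Cells detect double-stranded RNA through RIG-I-like receptors in the cytoplasm, which signal through the mitochondrial adaptor MAVS, and through the endosomal receptor TLR3. These pathways activate the factors IRF3 and IRF7, which switch on interferon genes. Secreted interferon then acts through its receptors on a complex containing STAT2 and IRF9 that binds a short promoter element, the interferon-stimulated response element (ISRE), and raises antiviral effectors and several of the sensors themselves. The mature strand miR-34a-5p is shown because it is the RNA that the mimic stands for, with its seed (bases 2 to 8) in capitals. It was read from RefSeq (GRCh38.p14), where it lies on the minus strand at chr1:9151735-9151756.
miR-34a-5p: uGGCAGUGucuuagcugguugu

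Stretches of 30 bases from 8 member promoters are shown because they hold the ISRE, and were picked to show genes that were higher, nearly level and lower. The letters searched were 2 copies of GAAA with any 2 bases between them, on both strands (TTTC on the other), and every match within the stretch is in capitals. Matches may overlap. All were read 5′ to 3′ on the strand of the gene from RefSeq promoters (GRCh38.p14). The first 4 genes were higher with the mimic, ISG15 and HERC5 were nearly level, and IFI27 and OAS3 were lower. IFIT1 is on the plus strand at chr10:89392502-89392531, DDX60 on the minus strand at chr4:168318816-168318845, ISG20 on the plus strand at chr15:88638942-88638971 and IFI6 on the minus strand at chr1:27672324-27672353. ISG15 (chr1:1013379-1013408), HERC5 (chr4:88456989-88457018), IFI27 (chr14:94110623-94110652) and OAS3 (chr12:112938326-112938355) are on the plus strand.
IFIT1: tttagTTTCACTTTCcccTTTCGGTTTCcc
DDX60: gaaggGAAACTGAAAcctaagtgcttctga
ISG20: aactaGAAACTGAAAcagggtcgggatgcc
IFI6: gagggGAAAATGAAActctgcagagtgcag
ISG15: ctcggGAAAGGGAAACCGAAActgaagcca
HERC5: tacagTTTCCTTTTCCTTTTCgattccgcc
IFI27: tgcagTTTCGGTTTCctgGAAAATGAAAcc
OAS3: gaaacGAAACTGAAAgcagggaatttccca

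On the 4 arrays, 41.8% to 45.2% of all probes were well above background, and 50 or 51 of the 73 member probes were. No spot was saturated, and no member probe carried an outlier flag. Values are given as the scaled log2 signal, the log2 processed signal minus the 75th percentile of the array. On this scale 0 is the 75th percentile. Between probes they were used only to choose the brightest probe, to call a signal low or moderate, and to sum markers. A probe was tested with limma if both arrays of either condition held it well above background, and a gene was read from its brightest tested probe. This left 50 probes and 36 member genes, and all 50 probes were above background on all 4 arrays. All 6 markers of GIST (KIT, ANO1, ETV1, PRKCQ, CD34 and PROM1) were above background on all 4 arrays. KIT, the receptor tyrosine kinase that drives most GISTs, differed by -0.70, PRKCQ by -0.23 and CD34 by 0.37, and the other 3 by -0.07 to 0.00. The summed level of the 6 markers, in multiples of the 75th percentile of the array, was 243.0 to 245.9 with the mimic and 317.7 to 319.7 with the control. In such a sum the brightest probes weigh most, and KIT alone of the 6 differed by more than 1.5-fold.

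Member genes were mostly higher with the miR-34a mimic, by small amounts. Of the 36 tested member genes, 24 were higher and 12 were lower, whereas 48.7% of all 16192 tested genes were higher. By limma, at an unadjusted p under 0.05, 15 member genes were higher, beside 13% of all tested genes, and 1 was lower, beside 11.9% of all tested genes. A difference of more than 1.5-fold was seen upward in 3 members (IFIT1, XAF1 and ISG20; 1.95% of all tested genes) and downward in 0 members (4.83%). The median log2 difference was 0.16 over the members and -0.01 over all tested genes. Both mimic arrays were above both control arrays for 22 members, beside 31.2% of all tested genes, and below them for 6 members, beside 30.6%. In RNA from a whole culture, more cells that express a gene and more RNA per cell cannot be told apart.

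No member passed an adjusted p of 0.05 by limma, and neither did any other gene (0% of all tested genes), with a smallest adjusted p of 0.0948 over all of them. With the variance modeled along the signal, limma gave 6 members an adjusted p under 0.05, all higher (IFIT1, MX1, IFI6, IFIT3, STAT2 and IRF9), beside 4.28% of all tested genes in that direction and 3.96% lower. With normexp background correction, MX1 and IFIT1 had an adjusted p under 0.05, beside 375 higher and 354 lower genes of the 16192 tested. For a single probe, an exact two-sided permutation test of 2 arrays against 2 cannot give a p below 0.33. The 15 higher members became 9 without negative control replicate 1, where the share over all tested genes was 7.07%, and 9 by the methods' t-test (11.8% of all tested genes).

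**Figure D1:**
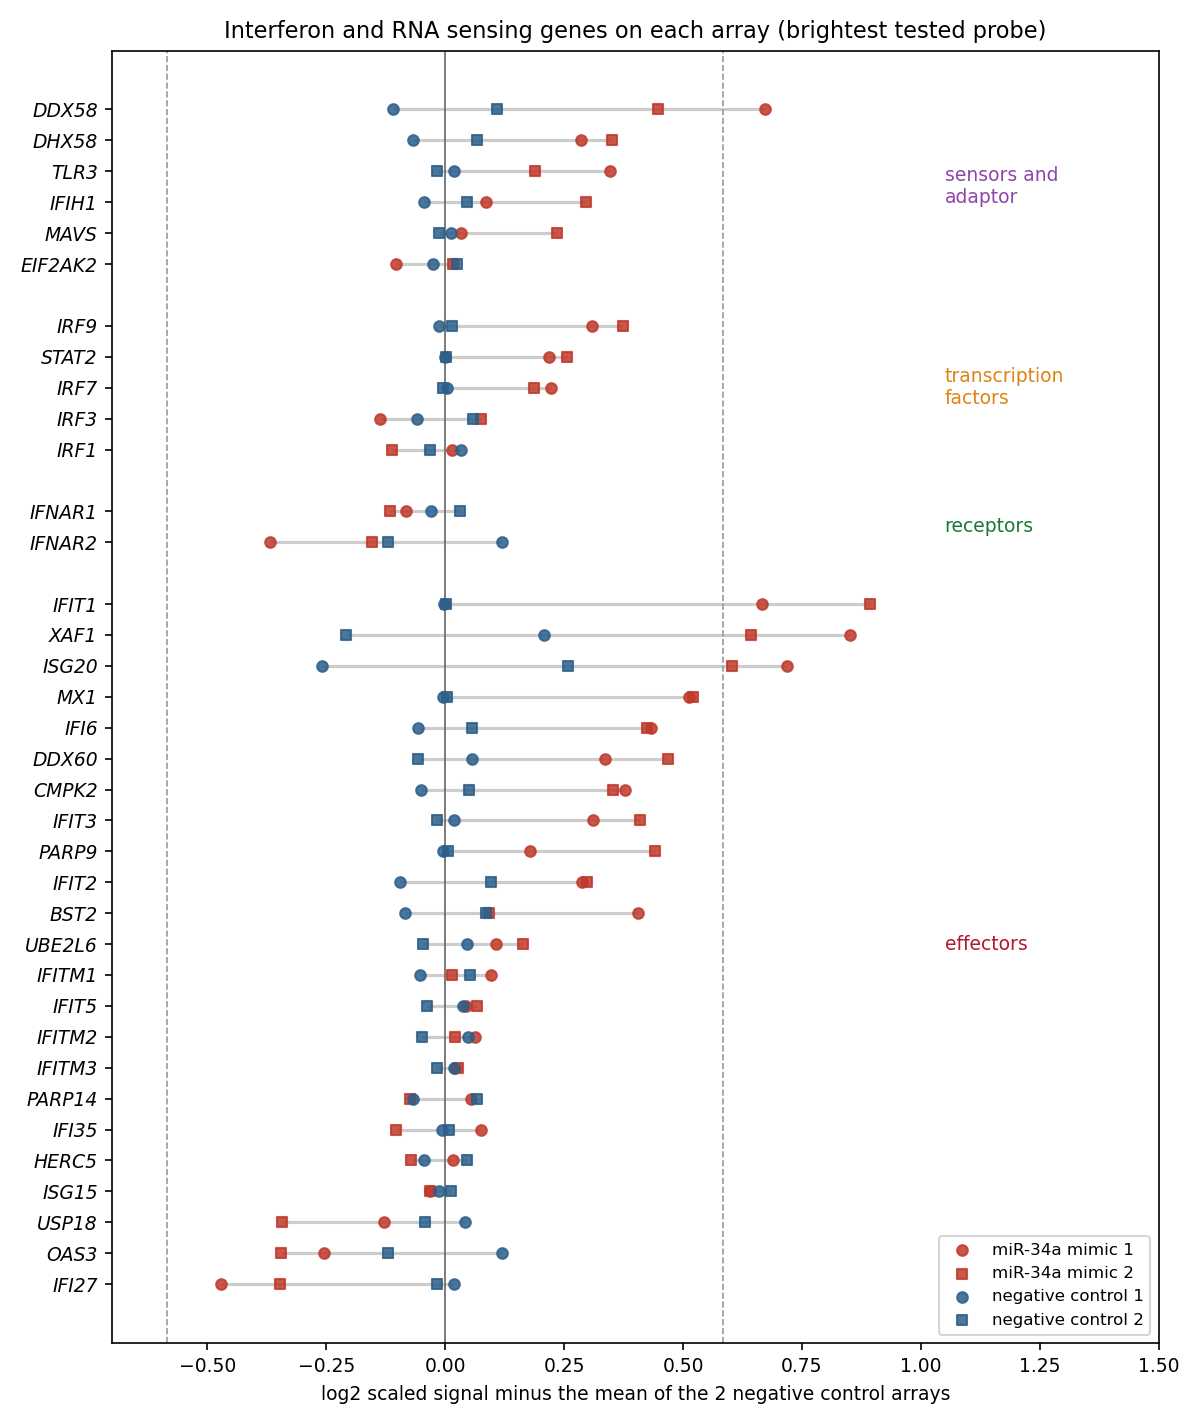
Scaled log2 signal of each tested member gene on each array, minus the mean of the 2 negative control arrays, with genes grouped by role (red, miR-34a mimic; blue, negative control; circles, replicate 1; squares, replicate 2; dashed lines, 1.5-fold). Red points lie to the right of both blue points for 22 of the 36 genes (31.2% of all tested genes) and to the left for 6 (30.6%).

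Among the 6 sensors and adaptors, 5 were higher, beside 48.7% of all tested genes, and the median log2 difference was 0.23. By limma, 3 of them were higher at an unadjusted p under 0.05, beside 13% of all tested genes. DDX58 encodes RIG-I, a cytoplasmic helicase that binds double-stranded RNA with a 5′ triphosphate. Its brightest probe gave 0.51 and 0.28 on the mimic arrays and -0.27 and -0.05 on the control arrays. The groups did not overlap, and the log2 difference was 0.56 (SE 0.13), with an adjusted p of 0.135 by limma. DHX58, the RIG-I-like receptor LGP2 that lacks a signaling domain, gave 1.20 and 1.27 with the mimic and 0.85 and 0.99 with the control. The difference was 0.32 (SE 0.08, adjusted p = 0.14 by limma). TLR3, the endosomal receptor, gave 1.60 and 1.44 with the mimic and 1.27 and 1.24 with the control, a difference of 0.27 (SE 0.08, adjusted p = 0.177 by limma). All 3 of these genes were higher on both mimic arrays, beside 31.2% of all tested genes.

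IFIH1 encodes MDA5, the RIG-I-like receptor of long double-stranded RNA. It gave -2.16 and -1.95 with the mimic and -2.29 and -2.20 with the control, a low signal. The difference was 0.19 (SE 0.10, adjusted p = 0.326 by limma), and it was 0.09 without mimic replicate 2 and 0.30 without mimic replicate 1. With normexp background correction it was 0.07, and with quantile normalization 0.30. EIF2AK2 encodes PKR, the kinase that halts translation when it binds double-stranded RNA. It gave 3.34 and 3.46 with the mimic and 3.42 and 3.47 with the control, and the groups overlapped, with a difference of -0.04 (SE 0.07). MAVS, the adaptor of RIG-I and MDA5, gave 3.24 and 3.44 with the mimic and 3.22 and 3.20 with the control on its brightest probe, a difference of 0.13 (SE 0.09, adjusted p = 0.422 by limma).

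Of the 5 transcription factors, IRF9, STAT2 and IRF7 were higher and IRF1 and IRF3 were nearly level, with a median log2 difference of 0.20. IRF9, the DNA-binding part of this complex, gave 0.94 and 1.01 with the mimic and 0.62 and 0.65 with the control. The difference of 0.34 (SE 0.06) had an adjusted p of 0.106 by limma, and the 2 arrays of each condition lay close together. STAT2, its partner, gave 3.86 and 3.90 against 3.64 and 3.65, a difference of 0.24 (SE 0.05, adjusted p = 0.133 by limma). IRF7, which amplifies the transcription of interferon alpha genes, gave 3.24 and 3.21 against 3.02 and 3.01, a difference of 0.20 (SE 0.05, adjusted p = 0.152 by limma). All mimic values of these 3 genes were above all control values, beside 31.2% of all tested genes.

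IRF3, the factor that first switches on interferon beta, gave 0.74 and 0.95 with the mimic and 0.82 and 0.94 with the control. IRF1, a factor shared by the type I and type II interferon responses, gave 1.26 and 1.13 against 1.28 and 1.21. Both sets of values overlapped, and the differences were -0.03 (SE 0.10) and -0.05 (SE 0.07).

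The ligand IFNB1, interferon beta, did not reach the background limit on any array. Its receptors were both measured and both lower, without passing the test. IFNAR1 gave 0.96 and 0.92 with the mimic and 1.01 and 1.07 with the control, a difference of -0.10 (SE 0.06, adjusted p = 0.359 by limma). IFNAR2 gave 1.16 and 1.38 against 1.65 and 1.41 on its brightest probe, a difference of -0.26 (SE 0.13, adjusted p = 0.312 by limma), and -0.14 without negative control replicate 1. For both receptors the mimic values of the brightest probe lay below the control values, beside 30.6% of all tested genes. A further probe of IFNAR2 differed by -0.07 (SE 0.07), with overlapping groups.

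Of the 35 effectors, 23 were tested. Of these, 16 were higher (48.7% of all tested genes) and 7 lower, and the median log2 difference was 0.14. By limma, 9 were higher (13% of all tested genes) and 1 was lower (11.9%) at an unadjusted p under 0.05. The IFIT proteins bind foreign RNA and block its translation. All 4 of their genes were higher on both mimic arrays, beside 31.2% of all tested genes. IFIT1, which recognizes RNA caps without 2′-O-methylation, gave 1.18 and 1.41 with the mimic and 0.52 and 0.52 with the control. This was a 1.72-fold difference (log2 0.78, SE 0.10, adjusted p = 0.0954 by limma). IFIT3, its binding partner, gave 1.06 and 1.16 against 0.77 and 0.73, a log2 difference of 0.36 (SE 0.06, adjusted p = 0.11 by limma). IFIT2 gave 0.39 and 0.40 against 0.01 and 0.20, a difference of 0.29 (SE 0.09, adjusted p = 0.179 by limma). IFIT5 gave 0.37 and 0.39 against 0.36 and 0.29, a difference of 0.06 (SE 0.06) that did not pass.

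MX1, a dynamin-like GTPase that binds incoming viral nucleocapsids, gave 1.47 and 1.48 with the mimic and 0.96 and 0.97 with the control, so that the arrays of a condition lay within 0.01 of each other. The log2 difference was 0.52 (SE 0.05, adjusted p = 0.0948 by limma), or 1.43-fold. IFI6, a small membrane protein that protects cells from apoptosis, gave 1.03 and 1.03 with the mimic and 0.54 and 0.66 with the control, a difference of 0.43 (SE 0.07, adjusted p = 0.101 by limma).

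XAF1, a pro-apoptotic antagonist of the inhibitor XIAP, gave -1.34 and -1.55 with the mimic and -1.99 and -2.40 with the control on its brightest probe. The groups did not overlap, and the log2 difference was 0.75 (SE 0.18, adjusted p = 0.143 by limma), or 1.68-fold. ISG20, an exonuclease that degrades single-stranded RNA, gave -1.31 and -1.42 against -2.29 and -1.77, a difference of 0.66 (SE 0.20, adjusted p = 0.184 by limma), or 1.58-fold. Its control arrays lay 0.52 apart, and the difference was 0.40 without negative control replicate 1. Both genes had large differences at a low signal and with a wide spread. With normexp background correction XAF1 differed by 0.27 and ISG20 by 0.26. In that setting IFIT1 alone among the members was higher by more than 1.5-fold, beside 0.377% of all tested genes.

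DDX60, a helicase reported to help RIG-I-like receptors, gave 0.36 and 0.50 with the mimic and 0.09 and -0.03 with the control, a difference of 0.40 (SE 0.08, adjusted p = 0.125 by limma). CMPK2, a mitochondrial nucleotide kinase, gave 0.30 and 0.27 against -0.13 and -0.03, a difference of 0.37 (SE 0.06, adjusted p = 0.109 by limma). Both were higher on both mimic arrays, beside 31.2% of all tested genes. PARP9, a macrodomain protein, was higher by 0.31 (SE 0.11) and BST2, the virus-tethering protein tetherin, by 0.25 (SE 0.14), and neither passed an unadjusted p of 0.05. Without mimic replicate 2 PARP9 was at 0.18, and without mimic replicate 1 BST2 was at 0.09. PARP14 was nearly level at -0.01 (SE 0.09), with overlapping groups.

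The genes of the ISG15 system did not move one way. ISG15, the ubiquitin-like modifier, was nearly level and gave 4.09 and 4.09 with the mimic and 4.11 and 4.14 with the control, a log2 difference of -0.03 (SE 0.05). The ligase HERC5, which attaches ISG15 to proteins, differed by -0.03 (SE 0.07), with overlapping groups. The conjugating enzyme UBE2L6 was higher by 0.14 (SE 0.07), with both mimic values above both control values. The deconjugating enzyme USP18, which also restrains the interferon receptor, gave 1.43 and 1.22 with the mimic and 1.61 and 1.52 with the control. Its difference was -0.24 (SE 0.10), with both mimic values below both control values, and -0.13 without mimic replicate 2. None of these 4 genes passed an unadjusted p of 0.05. The IFITM proteins keep enveloped viruses from fusing with endosomal membranes, and IFITM1, IFITM2 and IFITM3 differed by 0.06, 0.04 and 0.02, each by less than its SE. These 3 genes are close in sequence, and their probes may share transcripts. IFI35 differed by -0.01 (SE 0.08).

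Of the tested effectors, IFI27 and OAS3 lay furthest in the other direction. IFI27, a small mitochondrial protein and a sensitive blood marker of interferon exposure, gave -2.85 and -2.72 with the mimic and -2.36 and -2.39 with the control. The difference was -0.41 (SE 0.07, adjusted p = 0.108 by limma), at a dim signal. OAS3, which makes the oligoadenylate that activates RNase L, gave -0.67 and -0.75 against -0.29 and -0.53, a difference of -0.30 (SE 0.11, adjusted p = 0.218 by limma), and -0.18 without negative control replicate 1. In both genes the mimic values lay below the control values, beside 30.6% of all tested genes. With normexp background correction or quantile normalization, 0 members were lower at an unadjusted p under 0.05 by limma, beside 14.4% and 9.9% of all tested genes. IFI27 then differed by -0.13 and -0.23.

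**Figure D2:**
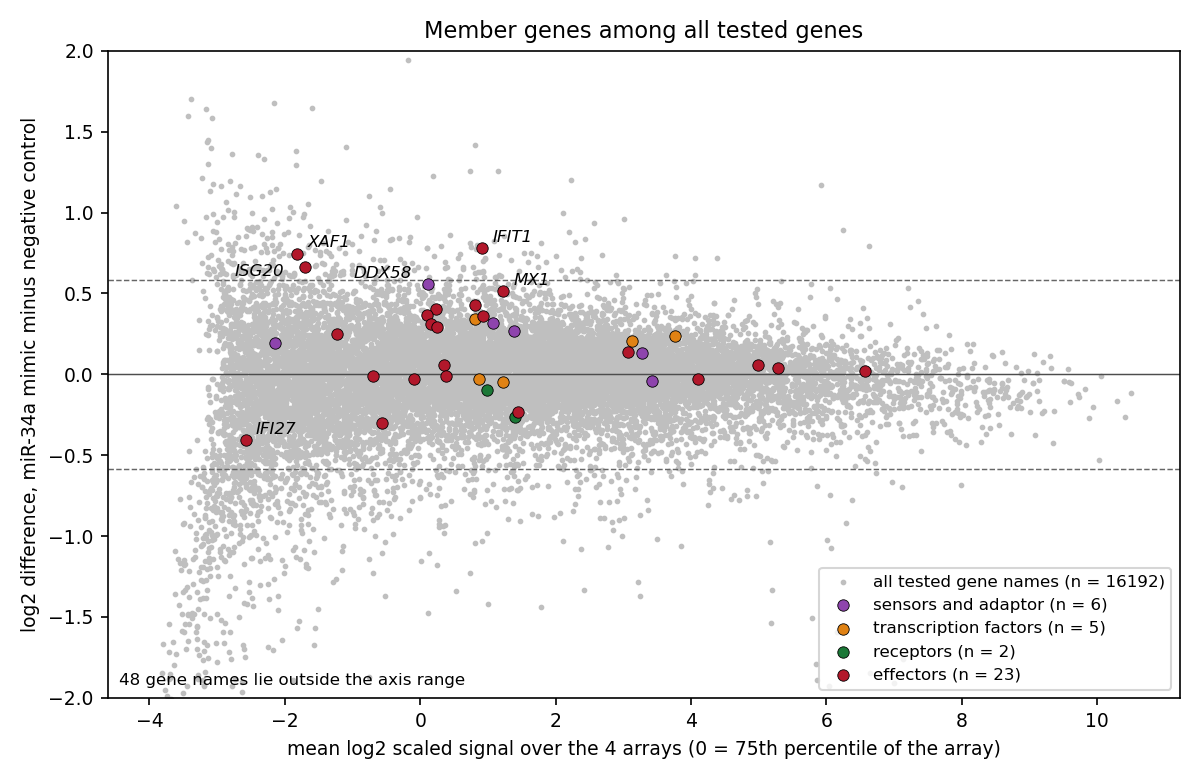
Log2 difference, miR-34a mimic minus negative control (y axis), against the mean scaled log2 signal over the 4 arrays (x axis), for all 16192 tested gene names (gray) and the 36 tested members (colored by role). Dashed lines mark 1.5-fold, and 48 gene names lie outside the range drawn. IFIT1 and MX1 stand at a moderate signal, and XAF1, ISG20 and IFI27 at a low one.

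The 13 members without a tested probe were IFNB1, MX2, OAS1, OAS2, OASL, RSAD2, IFI44, IFI44L, HERC6, SAMD9, SAMD9L, TRIM22 and EPSTI1. Several of them, such as RSAD2 (viperin), IFI44L and the OAS genes, are commonly used as markers of an interferon response. Of all 73 member probes, 21 were well above background on no array. Only 2 were above it on some arrays, a probe of MX2 on negative control replicate 1 and a further probe of IFIT2 on mimic replicate 1. For these probes neither condition reached the background limit on both arrays, so no fold is given.

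Probes of a gene did not always move together. Of 9 members with more than 1 tested probe, 5 had probes of opposite sign (XAF1, DDX58, MAVS, IRF3 and EIF2AK2). By limma, an unadjusted p under 0.05 was reached in the higher direction by 18 of the 50 probes (12.7% of all tested probes) and in the lower direction by 1 (11.6%). The further probe of XAF1 gave -2.29 and -2.33 with the mimic and -2.41 and -1.89 with the control, a log2 difference of -0.16 (SE 0.20), and lies 4676 bases from the brightest one (hg19, start to start). The further probe of DDX58, 330 bases away, gave -0.92 and -0.76 against -0.76 and -0.83, a difference of -0.04 (SE 0.08). Thus the higher values of XAF1 and DDX58 each rest on 1 probe. For IRF3 the further probe gave 0.89 and 0.95 against 0.73 and 0.85, a difference of 0.13 (SE 0.07). The further probe of EIF2AK2 differed by 0.04 (SE 0.06), from values of -0.03 and -0.01 with the mimic and -0.01 and -0.11 with the control, and neither IRF3 nor EIF2AK2 had a probe at an unadjusted p under 0.05.

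MAVS had 7 tested probes, the most of any member. Along chromosome 20 (hg19 start positions) they differed by -0.01 at 3835323, 0.13 at 3847884, 0.43 at 3855582, 0.22 at 3855595, 0.30 at 3855719, 0.21 at 3856703 and -0.04 at 3856711. The largest difference, 0.43, came from values of 1.20 and 1.21 with the mimic and 0.75 and 0.80 with the control (SE 0.05, adjusted p = 0.0954 by limma). The probes at 3855719 and 3856703 also had an unadjusted p under 0.05. The brightest probe, at 3847884, did not. The last probe in this order shares 52 bases with the one before it and gave overlapping groups (-1.32 and -1.08 with the mimic, -1.13 and -1.19 with the control). PARP9 and IFITM1 had both probes on the same side, at 0.31 and 0.37 and at 0.06 and 0.08. BST2 differed by 0.25 and 0.02.

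**Figure D3:**
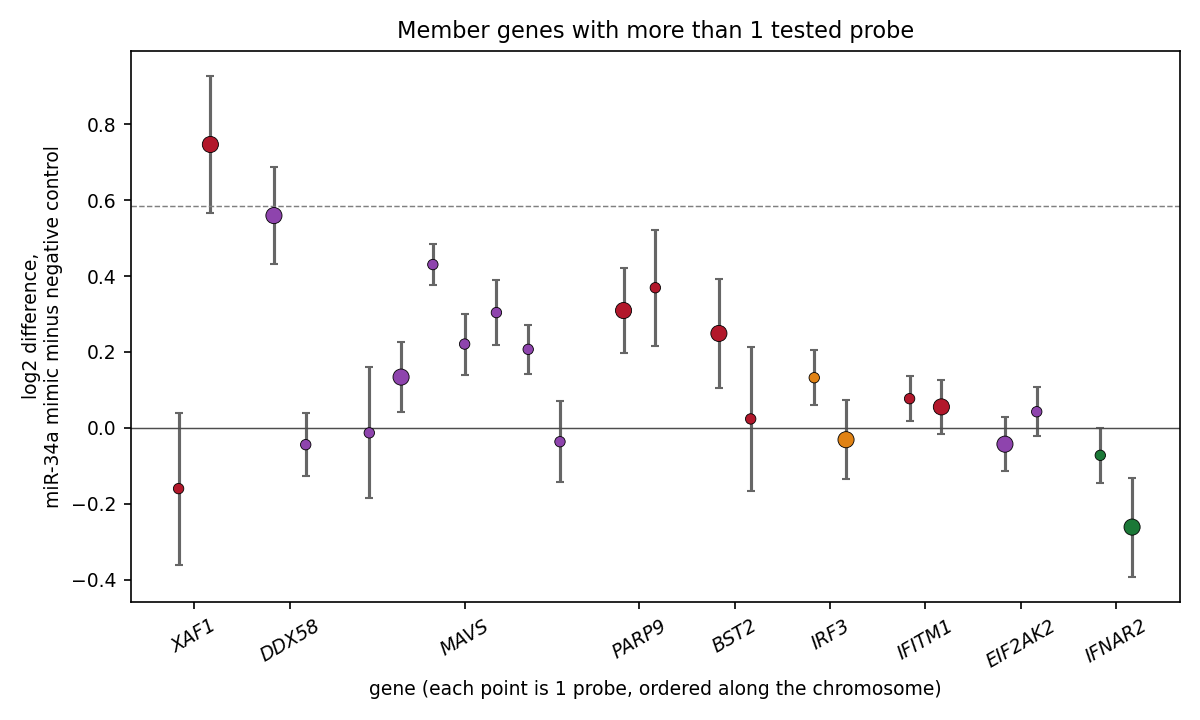
Log2 difference, miR-34a mimic minus negative control, for each tested probe of the 9 member genes with more than 1, ordered along the chromosome within a gene, with bars of 1 SE (large points, the brightest probe; dashed line, 1.5-fold). The values of the XAF1 probes, and of the DDX58 probes, lie far apart, and the 7 probes of MAVS span -0.04 to 0.43.

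Other genes of the pathway were taken from lists by function and read beside the same 13% higher and 11.9% lower over all tested genes. Among adaptors and kinases, 5 of 20 tested genes were higher and 2 were lower at an unadjusted p under 0.05 (median log2 difference 0.03). For antigen presentation the counts were 0 and 3 of 21 (median 0.04), and for other interferon-induced genes 7 and 5 of 38 (median 0.07). Among chemokines and NF-kB targets, 1 of 10 was higher and 3 were lower (median 0.11), and among negative regulators 2 and 2 of 17 (median 0.04). Of 24 other interferon ligands and receptors, 20 were on the array and 4 were tested, of which 1 was higher (median 0.13). No gene of these lists passed 1.5-fold in either direction.

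The listed genes named here were picked after their values were seen. Among adaptors and kinases, TMEM173, which encodes the DNA-sensing adaptor STING, was the furthest from 0. It gave 2.31 and 2.37 with the mimic and 2.84 and 2.88 with the control, a difference of -0.52 (SE 0.06, adjusted p = 0.0948 by limma). IKBKE, a kinase of IRF3 and IRF7, was also lower (-0.39), and TANK, IKBKG, TYK2, TRIM25 and RELA were higher by 0.17 to 0.34. In antigen presentation TAP2, CALR and ERAP1 were lower (-0.48, -0.30 and -0.24). Of the other interferon-induced genes, APOBEC3G, a cytidine deaminase that restricts retroviruses, had the largest higher value, 0.49 (SE 0.08, adjusted p = 0.101 by limma). The other 6 that were higher at an unadjusted p under 0.05 were TDRD7, RTP4, TNFSF10, APOBEC3F, PARP10 and NMI (0.21 to 0.35), and PLSCR1, DTX3L, SP100, TRIM14 and LY6E were lower by 0.19 to 0.31. Among NF-kB targets NFKBIA was higher (0.22) and NFKBIE, ICAM1 and TNFAIP3 were lower (-0.36, -0.31 and -0.23). Among negative regulators SOCS1, which inhibits JAK kinases, was higher by 0.41 (SE 0.08) and PTPN6 by 0.17, whereas RNF125, a ligase that marks RIG-I for degradation, differed by -0.49 (SE 0.10) and SOCS2 by -0.27. IL10RB, a receptor chain for interferon lambda, was higher by 0.28.

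**Figure D4:**
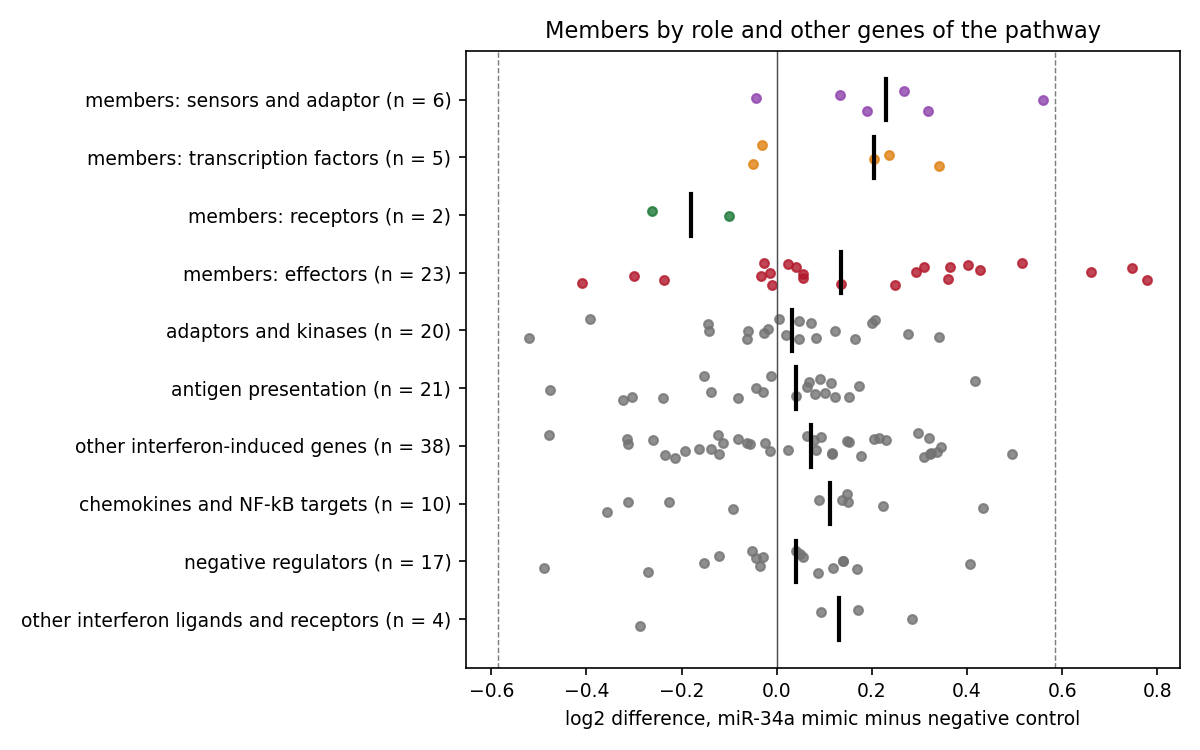
Log2 difference, miR-34a mimic minus negative control, for each tested gene of the 4 member roles (colored) and of 6 other lists of the pathway (gray), with the median of each as a black bar and 1.5-fold as dashed lines. The points past 1.5-fold are 3 effectors, and the medians of the 6 other lists lie between 0.03 and 0.13.

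Interferon responses are strong in leukocytes, and a few leukocyte genes were detected. Of 10 leukocyte markers, 4 were above background on all 4 arrays and 4 (CSF1R, NKG7, CLEC4C and LILRA4) on none. The summed level of the list, in multiples of the 75th percentile of the array, was 1.31 to 1.32 with the mimic and 1.51 to 1.65 with the control, so it was lower where the member genes were higher. Within it ITGAM differed by -0.72, CD68 by 0.24 and CD14 by 0.48. Fibroblast markers summed to 13.2 to 13.4 with the mimic and 11.5 to 12.0 with the control (3 of 4 above background on all arrays, COL1A2 on none). Epithelial markers summed to 102.6 to 103.4 and 111.6 to 114.8 (3 of 5, CDH1 and KRT19 on none). Of these, KRT18 differed by -0.14 and KRT8 by -0.10, whereas EPCAM differed by 0.41. Endothelial markers summed to 0.27 to 0.41 and 0.37 to 0.43 (0 of 3 on all arrays, PECAM1 on none), and CDH5 gave -3.57 and -3.64 with the mimic and -2.70 and -2.57 with the control. The part of these levels in the member values was not tested.

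The ISRE letters were found in 22 of the 38 member promoters that could be matched (57.9%), beside 996 of 27305 promoters of the same length (3.65%). They were in 19 of 28 effector promoters and 3 of 5 of the sensors and adaptors, and in none of the 3 transcription factor and 2 receptor or ligand promoters. Members with and without the letters were both mostly higher. Of the 18 tested members with the letters, 12 were higher, 7 of them at an unadjusted p under 0.05, with a median log2 difference of 0.12. Of the 11 without them, 8 were higher, 5 at an unadjusted p under 0.05, with a median of 0.24. Among the other tested genes, 12.7% of 268 with the letters and 14.3% of 9922 without them were higher at an unadjusted p under 0.05, with medians of 0.02 and 0.01. ISG15 and HERC5, with overlapping matches in the stretches shown, were nearly level, and IFI27, with matches on both strands, was lower. IFIH1 and BST2 also held overlapping matches and were higher by 0.19 and 0.25, neither at an unadjusted p under 0.05 by limma. IFIT1, with 2 matches in the stretch shown, was higher by 0.78. A match describes these letters only and does not show that a factor binds there.

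The complement of the miR-34a seed, CACTGCC, was in 1 of the 73 member probes (1.37%), beside 0.43% of all probes. It was a probe of IFI35, whose groups overlapped. Each probe covers 60 bases of a transcript, so sites elsewhere in the transcripts were not examined.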

How the data were processed

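GIST-T1 RNA was measured on one-color Agilent arrays, 2 for each condition, and conditions and replicates were taken from the labels. Scanner output was deposited by the authors for every array (Agilent Feature Extraction 10.7.3.1 per the file headers). Its processed signal is an intensity corrected for background and spatial trends within the array and not scaled between arrays. They also deposited a table of the same intensity values for all arrays, within 0.5% of the scanner output, in which 0 columns belonged to no mapped sample. All arrays shared 1 slide and 1 scan.

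Control spots and outlier spots (293 to 424 of 58717 per array) were left out, and spots of a probe were averaged. From the log2 intensity the array's own 75th percentile was subtracted. The tested probes, 21474 with 16192 gene names, were those that both arrays of either condition held well above background. limma 3.58.1 (lmFit and eBayes) was run in R 4.3.3, with version 1.17.8 of data.table to read the files, and p-values were adjusted over all tested probes by Benjamini-Hochberg. The unadjusted p threshold was 0.05. The fold threshold of 1.5 is the study's. Its methods name t tests for continuous variables at large, which is the basis of the methods' t-test here, but neither a test nor a scaling for the arrays in particular. The number of arrays limits the precision. The calculations were tested on simulated data.

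Members, lists and tests were chosen with earlier results of these data known. Values on each array are given for members past 1.5-fold or at an unadjusted p under 0.05, for all tested sensors, transcription factors and receptors, and for members whose probes differ in sign; other members are given by value, range or count. Listed pathway genes past 1.5-fold were to be named besides (there were 0). A gene that the rule names by symbol, and a marker gene, are not reported here. Gene names, and positions on hg19, come from the array files. RefSeq holds a symbol for all 49 members, in which DDX58 is RIGI, an accession for 68 of the 73 member probes, and a promoter (250 bases before to 50 after the start, GRCh38.p14) for 38 members. Whether a probe lies in an exon or an untranslated region was not examined. Alternatives tried were quantile normalization, normexp background correction with an offset of 50, the 75th percentile over detected probes, no filter on dim probes, a filter requiring all 4 arrays, the authors' table, a variance trend, a block for the replicate number, the methods' t-test, the median over the probes of a gene, and leaving out each array.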

Additional observations from a re-analysis of the deposited data

How the results depend on the processing

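The median log2 difference of the tested members stayed above 0 under every alternative run and was lowest (0.055) with no filter on dim probes. That setting also gave 3 members lower by more than 1.5-fold, and the share over all genes was not computed. These were MX2, SAMD9L and EPSTI1, which had no probe above the background limit on both arrays of a condition. No fold is read from them. The same setting gave 2 members lower at an unadjusted p under 0.05 by limma, beside 6.96% of all genes in the same fit. The count lower at that threshold was also 2 with the 75th percentile over detected probes (12.7% of all tested genes). It was again 2 with the filter on all 4 arrays (12.2%) and with the replicate block (10%). With normexp (14.4%) and with quantile normalization (9.9%) it was 0. Normexp left 1 member higher by more than 1.5-fold (0.377% of all tested genes). By limma it gave 2 members (MX1 and IFIT1) an adjusted p under 0.05, beside 375 higher and 354 lower genes in all. The variance trend gave 6, beside 693 higher and 641 lower genes in all. The methods' t-test gave 9 higher members at an unadjusted p under 0.05 (11.8% of all tested genes). Without 1 array, 9 to 12 members were higher and 1 to 2 lower at an unadjusted p under 0.05, beside 6.86% to 10.1% and 6.6% to 13.6% of all tested genes in the same fits. The lone array of a condition was then assumed to vary like the other condition, and leaving out negative control replicate 1 gave the 9. Differences near 0 changed sign: EIF2AK2 (0.000198), IFI35 (0.0089) and PARP14 (0.038) were above 0 with normexp, PARP14 with quantile normalization (0.013) and IRF3 as a median over its probes (0.051). Without 1 array, EIF2AK2 ranged from -0.102 to 0.017, IRF3 from -0.137 to 0.074, HERC5 from -0.073 to 0.018, IFI35 from -0.103 to 0.076, IRF1 from -0.112 to 0.015, PARP14 from -0.078 to 0.057 and IFITM2 from -0.0069 to 0.089. XAF1 was above IFIT1 with quantile normalization (0.86 and 0.77). The causes were not tested.

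Same-numbered arrays did not deviate together (correlation of replicate differences -0.03 over the tested probes). The labels do not say whether the replicate numbers pair the arrays, and this correlation cannot settle it. At an unadjusted p under 0.05, the replicate block changed the count of higher members from 15 to 13 (9.58% of all tested genes) and of lower members from 1 to 2 (10%).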
